A study of Mus musculus with 24 samples.

Results

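A group of 66 morphogen and growth factor signalling genes was examined in P19 cells exposed to retinoids, out of 1753 genes listed in at least 1 of 23 deposited comparison tables. The members were taken by symbol, as every listed gene whose name begins like a Wnt, BMP, GDF, activin, TGFβ, FGF, IGF, PDGF, VEGF, EGF, Notch ligand, Hedgehog, neurotrophin, GDNF or Kit family member or one of their secreted modulators, and 5 genes with such names (Bmp4, Igf1, Igfbp5, Pdgfra and Ccn4) were not included. Of the 66, 63 are on the family lists used here. The other 3 (Egfem1, Tgfbi and Tgfbr3l) match by the start of the symbol and were not placed in a family.

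P19 is a mouse embryonal carcinoma line, and the cells were grown as a monolayer on gelatin. Polyadenylated RNA was sequenced from 24 samples with 1 library per condition. WT cells were sampled on days 2, 4 and 10 with all-trans retinoic acid (ATRA, the pan-RAR ligand, 1 µM), with the RARα agonist BMS753 (1 µM), with the RARβ agonist BMS641 and the RARγ agonist BMS961 together (0.1 µM each, hereafter the combination), or with the vehicle ethanol (EtOH), and on day 10 with BMS961 alone (0.1 µM). Rara-/-, Rarb-/- and Rarg-/- lines, made with CRISPR/Cas9 and a puromycin resistance cassette, were sampled on day 10 only. Rara-/- cells received ATRA, BMS961 or the combination, Rarb-/- cells ATRA, BMS753, BMS961 or the combination, and Rarg-/- cells ATRA, BMS753, BMS641 (0.1 µM) or the combination. Ligands were given for 4 days, and the day 10 cultures then spent 6 days in Neurobasal medium with N2 and B27 supplements without vitamin A. No vehicle library of a mutant line is among the samples, so that line and ligand cannot be told apart within a mutant table, and whether each line is 1 clone is not given in the sources used here. No table lists Rara, Rarb or Rarg, and the knockouts could not be checked from these data.

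All 23 tables compare 1 library with the same one, WT EtOH day 2, and hold only genes with an unadjusted p-value under 0.01. A gene in a table is called listed here, and one past 4-fold (a log2 fold change over 2 in size) is called up or down. A gene absent from a table was not listed, which does not mean that it did not change. The tables hold 57 to 546 genes each, and the smallest change that they list differs. In the 7 day 10 tables of ATRA or BMS753 it was 4.17 to 4.73 on the log2 scale, whereas in the other 9 day 10 tables it was 2.71 to 3.35. These are limits of a table, not of a gene. The standard error (SE) given beside a value is the one implied by the deposited fold change and p-value, an error of the authors' model and not a spread between replicates. Over the members' 373 listed values it ranged from 0.54 to 2.92 with a median of 1.95. A value must exceed 2.58 times its own SE to be listed, which came to 1.39 to 7.52 over the members' values (median 5.02), so a gene with a large SE could change by more than the smallest listed change of a table and still be absent from it. No test between conditions was made, since each condition has 1 library and the lists, held to p under 0.01 and without counts, allow no fit across libraries. With the stricter limit of p under 0.001, the members up in WT cells with ATRA at day 10 went from 16 to 1 and those up in Rarg-/- cells with BMS753 from 25 to 5.

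Wnt ligands act through Frizzled receptors on β-catenin and other effectors, and set posterior, dorsal and midbrain identity in the neural tube. Nodal, activins, BMPs and GDFs signal through receptor kinases and SMAD proteins, and Nodal with its targets Lefty1 and Lefty2 belongs to the signalling of pluripotent and early embryonic cells, as does Fgf4. Retinoic acid is known to act beside FGF, Wnt, Hedgehog and Notch signals in the patterning and differentiation of neural cells.

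The promoters of 4 members that the results turn on are shown as RefSeq gives them (250 bases before the start of transcription and 50 after it, table of GRCm38.p6), placed on mm9 by exact match. Wnt1 (mm9 chr15:98620288-98624268, + strand) and Wnt10b (chr15:98602184-98608581, - strand) are neighbours 11.7 kb apart that point away from each other. Nodal and Fgf4 stand for the members that fell. Capitals mark retinoid receptor half-sites (the motif AGGTCA with its variants, written as AGTTCA, then as GGGTCA, then as GGTTCA, searched on either strand).
Wnt1 promoter, chr15:98620038-98620337, + strand: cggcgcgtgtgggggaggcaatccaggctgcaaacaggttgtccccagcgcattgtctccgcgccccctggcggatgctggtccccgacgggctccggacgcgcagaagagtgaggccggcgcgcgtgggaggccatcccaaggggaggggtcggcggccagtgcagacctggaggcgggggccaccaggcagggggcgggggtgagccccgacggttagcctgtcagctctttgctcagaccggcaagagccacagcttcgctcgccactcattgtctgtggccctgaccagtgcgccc
Wnt10b promoter, chr15:98608532-98608831, - strand: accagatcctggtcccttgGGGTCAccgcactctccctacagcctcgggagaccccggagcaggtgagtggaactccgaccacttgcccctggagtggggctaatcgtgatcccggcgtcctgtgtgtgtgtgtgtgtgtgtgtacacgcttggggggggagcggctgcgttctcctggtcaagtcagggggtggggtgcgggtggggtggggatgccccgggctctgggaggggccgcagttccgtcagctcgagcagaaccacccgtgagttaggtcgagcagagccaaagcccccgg
Nodal promoter, chr10:60880470-60880769, + strand: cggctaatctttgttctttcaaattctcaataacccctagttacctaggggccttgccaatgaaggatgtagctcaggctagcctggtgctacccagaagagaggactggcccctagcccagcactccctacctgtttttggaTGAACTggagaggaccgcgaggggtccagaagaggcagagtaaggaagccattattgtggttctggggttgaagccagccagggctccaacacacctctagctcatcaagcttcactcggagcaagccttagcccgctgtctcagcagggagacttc
Fgf4 promoter, chr7:152047041-152047340, + strand: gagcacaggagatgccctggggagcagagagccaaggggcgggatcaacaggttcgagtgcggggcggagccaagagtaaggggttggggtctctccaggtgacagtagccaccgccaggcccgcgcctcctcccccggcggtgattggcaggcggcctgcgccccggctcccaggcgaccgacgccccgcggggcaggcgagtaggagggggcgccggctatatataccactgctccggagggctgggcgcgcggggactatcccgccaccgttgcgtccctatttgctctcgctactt
The Wnt10b and Nodal promoters hold 1 half-site each, and those of Wnt1 and Fgf4 hold 0. RefSeq promoters were matched for 45 of the 66 members, and 17 of the 45 (37.8%) hold a half-site, against 46.9% of 27025 genes. Direct repeats of these half-sites spaced by 1, 2 or 5 bases are in 0 of the 45, against 0.263%, 0.311% and 0.115% of all genes in that order. These matches describe the letters of a 300 base window and no site.

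Across all tables, 49 members were up in at least 1 table and down in none, 16 were down and never up, and 0 were called in both directions. Ccn1, a secreted matricellular protein, was listed once and not called (WT EtOH day 4, log2 fold change -1.47, SE 0.54). In 18 members the listing rests on 1 table. Wnt ligands were represented by 13 of 19 genes, all up, and Frizzled receptors by 0 of 10. FGF ligands had 9 of 18 (6 up, 3 down) and FGF receptors 1 of 5, BMP and GDF ligands 6 of 15, the Nodal, activin and TGFβ ligands 4 of 12 and their antagonists 5 of 12. Of BMP and TGFβ receptors (Tgfbr3l not counted among them) 0 of 6 were in any table, and of Notch receptors 0 of 4. Only 1753 genes were listed anywhere, against 27025 genes with a RefSeq promoter. A count of 0 in a small family thus cannot be set apart from this background, and ligands were not tested against receptors.

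**Figure D1:**
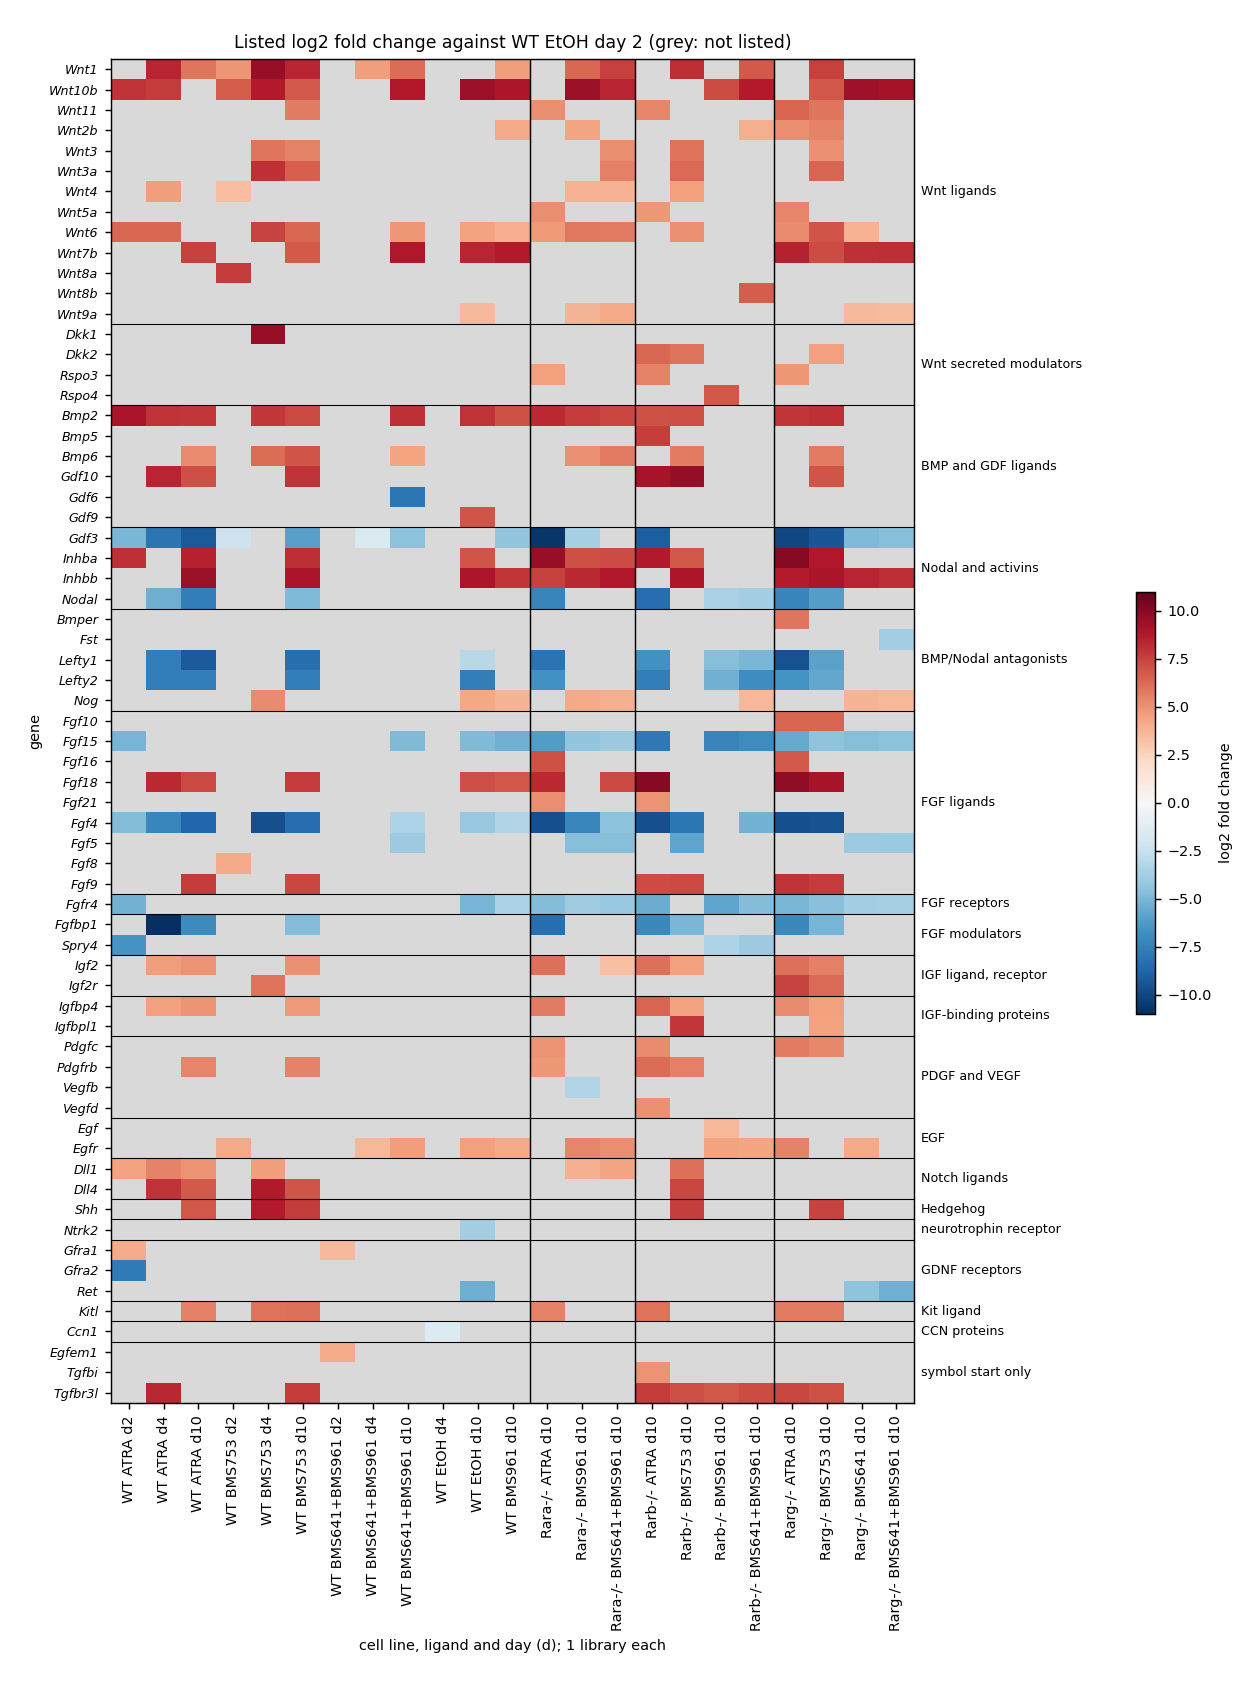
Log2 fold change of each of the 66 members (rows, grouped by family) in each of the 23 comparisons with WT EtOH day 2 (columns; d is the day, and vertical lines separate WT, Rara-/-, Rarb-/- and Rarg-/- cells), from blue (lower) through white to red (higher), with grey for a gene that is not listed. Wnt ligands hold only red cells, and the Nodal, Gdf3, Lefty1, Lefty2, Fgf4 and Fgf15 rows only blue ones.

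More members were called in the ATRA and BMS753 series of WT cells with each day. The background given for each table is the share of the 1753 genes listed anywhere that is called in it, since the total that the authors tested is not known from the tables. With ATRA, 6 members were up at day 2 (9.09% of 66, against 5.65% of all), 12 at day 4 (18.2% against 10.2%) and 16 at day 10 (24.2% against 22.5%). Down with ATRA were 6 on each of the 3 days (9.09%, against 2.57%, 5.7% and 8.61% of all). With BMS753, 6 members were up at day 2 (against 6.39% of all), 14 at day 4 (21.2% against 8.33%) and 21 at day 10 (31.8% against 21.8%), and 1, 1 and 6 were down (against 1.88%, 3.31% and 9.13%). The shares at day 10 with ATRA were thus near the background in both directions, and those with BMS753 were above it among up genes only. The median of the 16 members up with ATRA at day 10 was 6.80 on the log2 scale, against 6.94 for all 395 genes up.

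The combination called few members early. In WT cells it gave 2 up at day 2 (3.03% against 3.71% of all), 2 at day 4 (against 2.22%) and 7 at day 10 (10.6% against 9.87%), with 0, 0 and 5 down (against 1.48%, 2.91% and 8.5%). BMS961 alone gave 10 up and 4 down at day 10 (15.2% and 6.06%, against 8.16% and 7.47%). Vehicle cultures also changed: EtOH had 0 up and 0 down at day 4 (against 1.65% and 0.57%), but 11 up and 7 down at day 10 (16.7% and 10.6%, against 9.53% and 7.64%). A day 10 value therefore holds the change from day 2 to day 10 in vehicle as well as any change with the ligand.

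In the mutant lines, ATRA gave 15 up and 8 down in Rara-/- cells (22.7% and 12.1%, against 19% and 10.4%), 19 and 8 in Rarb-/- cells (28.8% up, against 20.5% up and 10.3% down) and 21 and 8 in Rarg-/- cells (31.8% up, against 21.4% and 9.47%). BMS753 gave 20 up and 3 down in Rarb-/- cells (30.3% and 4.55%, against 22.3% and 6.79%). In Rarg-/- cells BMS753 gave 25 up and 8 down (37.9% and 12.1%, against 19.9% and 10.3%), the highest up count of any table. The combination gave 16 up and 4 down in Rara-/- cells (24.2% and 6.06%, against 16.8% and 6.67%), 7 and 7 in Rarb-/- cells (10.6% each, against 8.27% and 7.64%) and 5 and 6 in Rarg-/- cells (7.58% and 9.09%, against 8.61% and 7.3%). BMS961 gave 13 up and 6 down in Rara-/- cells (19.7% and 9.09%, against 10.9% and 8.61%) and 5 and 6 in Rarb-/- cells (7.58% and 9.09%, against 7.02% and 6.96%), and BMS641 gave 7 and 5 in Rarg-/- cells (10.6% and 7.58%, against 8.5% and 7.82%).

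**Figure D2:**
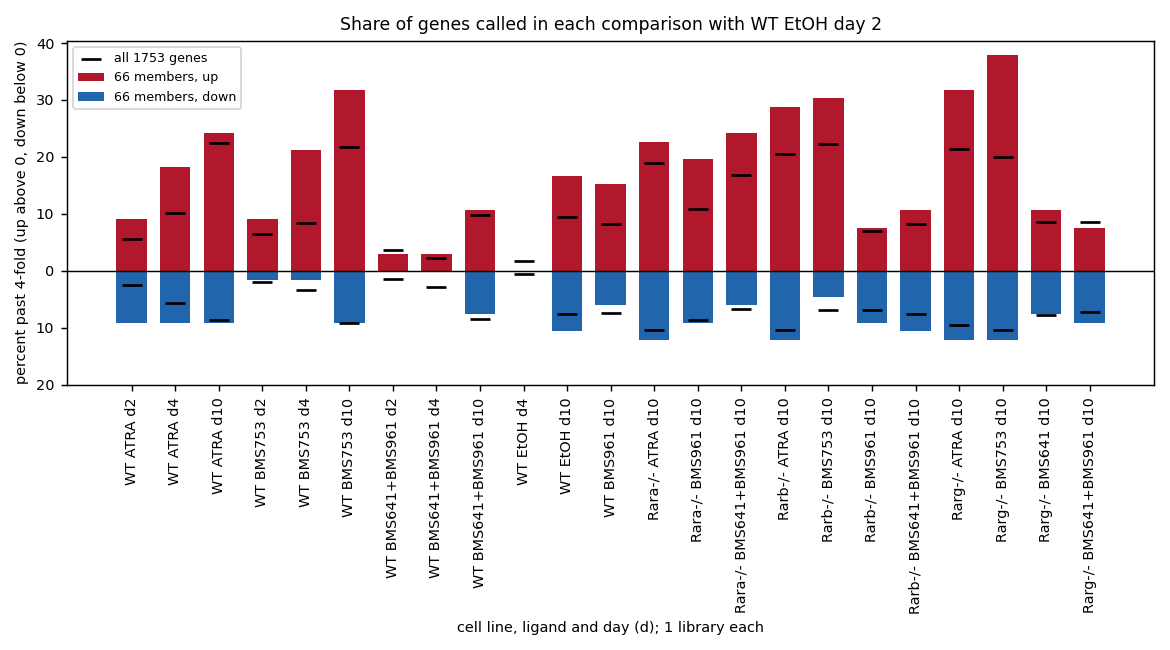
Percent of the 66 members past 4-fold in each comparison with WT EtOH day 2 (bars; up above 0 in red, down below 0 in blue) and the same percent of all 1753 genes (black marks), with 1 library per column. The tallest bar is Rarg-/- with BMS753 at day 10, with 37.9% of members up against 19.9% of all genes.

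Wnt ligands were the largest group of members and rose only. Wnt1, a midbrain and dorsal neural tube ligand, was up in 13 tables. In WT cells its log2 fold change with BMS753 was 4.89 (SE 1.47) at day 2, 9.57 (2.44) at day 4 and 8.35 (2.19) at day 10, and with ATRA it was 8.34 (2.30) at day 4 and 5.86 (2.06) at day 10. With the combination Wnt1 reached 4.61 (SE 1.51) at day 4 and 6.18 (1.70) at day 10, and with BMS961 at day 10 4.56 (1.66). It was not in either EtOH table. In mutant lines Wnt1 was up with BMS753 (8.09 in Rarb-/- and 7.51 in Rarg-/- cells), with the combination (7.55 in Rara-/- and 6.78 in Rarb-/- cells) and with BMS961 in Rara-/- cells (6.30). It was listed in none of the 3 mutant tables of ATRA (at its SE with ATRA in WT cells it needed 5.31 to be listed), nor in Rarg-/- cells with BMS641 or the combination or in Rarb-/- cells with BMS961.

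Wnt10b, the neighbour of Wnt1, was up in 15 tables with another distribution. It was highest in EtOH at day 10, at 9.44 (SE 2.37), and was also up with the combination (8.82), BMS961 (8.87) and BMS753 (6.75) at day 10, with BMS753 at days 2 and 4 (6.69 and 8.74) and with ATRA at days 2 and 4 (7.93 and 7.73). In the mutant lines it ranged from 6.84 (Rarg-/- with BMS753) to 9.41 (Rara-/- with BMS961). Neither WT nor mutant cells with ATRA listed it at day 10. Wnt7b, a ligand of neural and epithelial tissue, was likewise up in EtOH (8.37, SE 2.43), with the combination (8.84) and with BMS961 (8.73), and lower in value with ATRA (7.49) and BMS753 (6.75), all in WT cells at day 10. It was up in the 4 Rarg-/- tables (7.17 to 8.45) and in none of Rara-/- or Rarb-/- cells. In WT cells at day 10 both genes thus stood higher in vehicle than with BMS753, by differences close to or under their SE.

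Wnt3 and Wnt3a, ligands of the β-catenin route in the dorsal neural tube and the primitive streak, were listed mainly with BMS753. Wnt3a was up in WT cells with BMS753 at day 4 (8.07, SE 2.35) and day 10 (6.57, 2.12), with BMS753 in Rarb-/- (6.19) and Rarg-/- cells (6.40), and with the combination in Rara-/- cells (5.50, 1.85). Wnt3 was at 5.90, 5.48, 6.00, 5.01 and 5.15 in the same order. Neither gene was in a table of ATRA, vehicle or BMS961, nor with the combination in WT, Rarb-/- or Rarg-/- cells. At their SE in Rara-/- cells with the combination, Wnt3 needed 4.25 and Wnt3a 4.77 to be listed.

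Wnt5a and Wnt11, ligands known for signalling apart from β-catenin, were listed in ATRA-treated mutant lines. Wnt5a was at 5.10 (SE 1.75) in Rara-/-, 4.79 (1.83) in Rarb-/- and 5.39 (1.89) in Rarg-/- cells and in no other table. Wnt11 was at 5.14, 5.33 and 6.37 in the same lines, and also with BMS753 in WT (5.63) and Rarg-/- cells (5.86). At the SE of Wnt5a in the mutant lines, 4.51 to 4.87 was needed to be listed, so a change of similar size could go unlisted in WT cells. Wnt6 was up in 14 tables, from 3.79 (Rarg-/- with BMS641) to 7.43 (WT with BMS753 at day 4), with 6.31 and 6.30 with ATRA at days 2 and 4 and 4.43 in EtOH at day 10. Wnt2b (4.00 to 5.42 in 5 tables), Wnt4 (3.37 to 4.62 in 5 tables) and Wnt9a (3.48 to 4.17 in 5 tables) were lower in value. Wnt9a was up in EtOH at day 10 (3.59) and lies 16.2 kb from Wnt3a on chromosome 11. Wnt8a (WT with BMS753 at day 2, 7.65) and Wnt8b (Rarb-/- with the combination, 6.69) were each in 1 table.

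**Figure D3:**
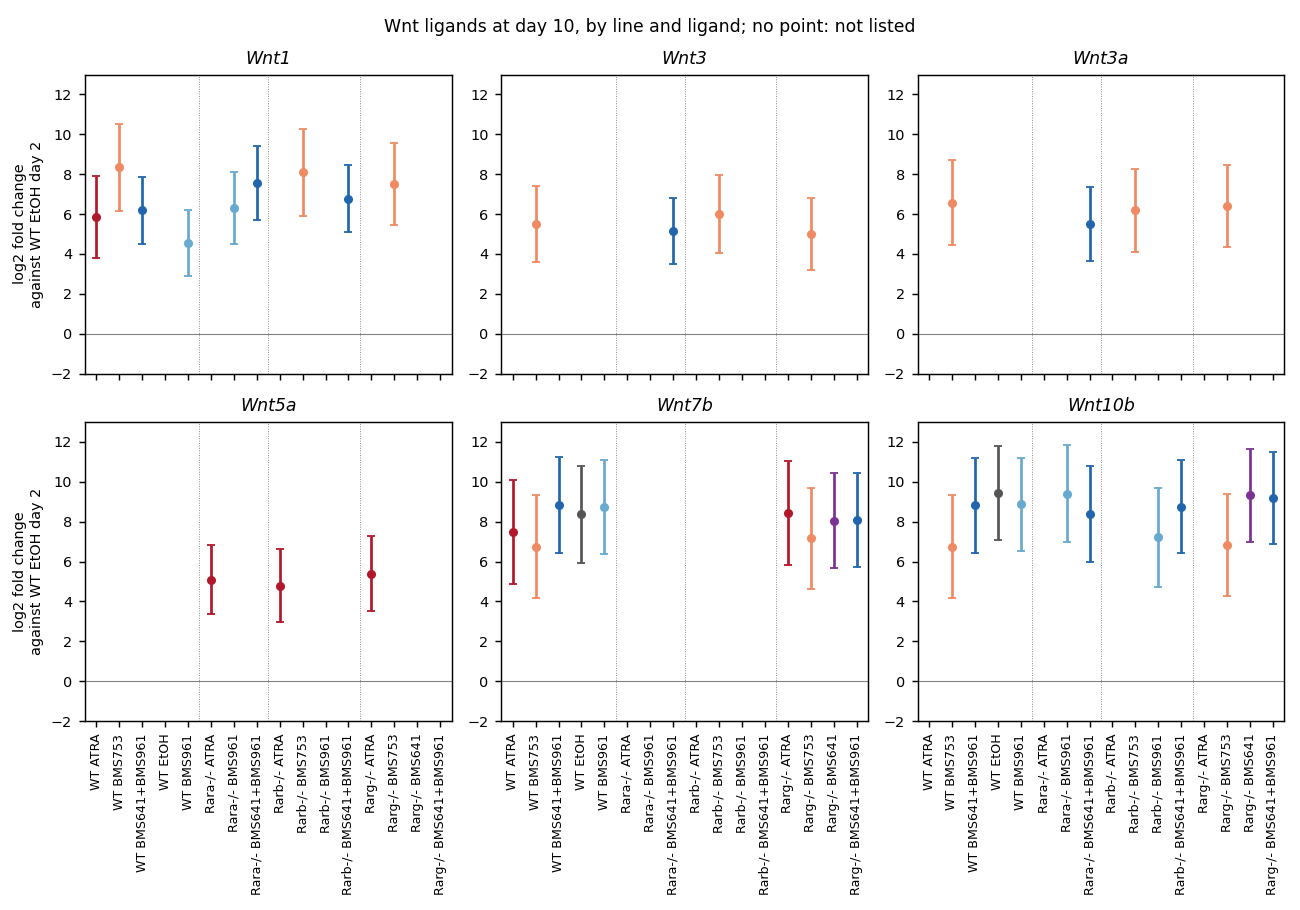
Log2 fold change against WT EtOH day 2 of 6 Wnt ligands in the 16 day 10 comparisons (points, with bars of 1 implied SE; 1 library per point; dotted lines separate WT, Rara-/-, Rarb-/- and Rarg-/- cells; red ATRA, orange BMS753, dark blue the combination, light blue BMS961, purple BMS641, grey EtOH), with no point where the gene is not listed. Wnt5a has 3 points, all with ATRA in mutant lines, whereas Wnt3 and Wnt3a have points with BMS753 and with the combination in Rara-/- cells.

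Of the secreted Wnt modulators, 4 of 12 were listed, all up. Dkk1, an inhibitor that binds LRP co-receptors, was up once, in WT cells with BMS753 at day 4 (9.54, SE 2.84). Dkk2 was up in Rarb-/- cells with ATRA (6.30) and BMS753 (5.97) and in Rarg-/- cells with BMS753 (4.47). Rspo3, an R-spondin that strengthens Wnt signalling, was up with ATRA in the Rara-/- (4.52), Rarb-/- (5.43) and Rarg-/- (4.75) lines, and Rspo4 with BMS961 in Rarb-/- cells (6.84).

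Among other genes of the Wnt route (19 response and transduction genes, chosen from general knowledge), 5 were listed. Sp5, a target of β-catenin, was up in 13 tables (6.84 to 9.99), among them EtOH at day 10 (8.43). Wif1, a secreted Wnt inhibitor, was up in 7, including 7.22 with ATRA and 8.26 with BMS753 in WT cells at day 10. Nkd1, a negative feedback target, was up at day 10 after BMS753, in WT (4.68), Rarb-/- (4.44) and Rarg-/- (4.40) cultures. Porcn, the acyltransferase that Wnt secretion needs, was up early in WT cells (5.70 with ATRA, 4.30 with BMS753 and 3.39 with the combination at day 2). Tcf7, a transcription factor of the route, was down with ATRA in Rarb-/- cells.

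BMP and GDF ligands were mostly up. Bmp2, which acts in bone, heart and dorsal neural tissue, was up in 15 tables between 7.01 and 8.97. It was at 8.97 (SE 2.83), 7.96 (2.84) and 7.81 (2.61) with ATRA at days 2, 4 and 10, at 7.99 (2.47) in EtOH at day 10, and at 8.23, 7.02 and 7.89 with ATRA in Rara-/-, Rarb-/- and Rarg-/- cells. The 12 day 10 values of Bmp2 span 1.22, less than their median SE of 2.53. Bmp6 was up with BMS753 in WT (6.13 at day 4 and 6.95 at day 10), Rarb-/- (5.64) and Rarg-/- cells (5.73), and with ATRA in WT (5.21) but in no mutant line with ATRA. It was also up with the combination in WT (4.32) and Rara-/- (5.65) and with BMS961 in Rara-/- (5.06) cells. Gdf10, a BMP-like factor, was up in 6 tables of ATRA or BMS753 (6.95 to 9.63). Bmp5 (Rarb-/- with ATRA, 7.61), Gdf9 (WT EtOH day 10, 6.90) and Gdf6 (WT combination day 10, down at -7.95) were in 1 table each.

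Nodal, Gdf3, Lefty1 and Lefty2 fell, and were down with ATRA at day 10 in all 4 lines. Nodal, the ligand that drives mesendoderm and left-right patterning, was at -7.59 (SE 2.20) in WT, -7.31 (2.02) in Rara-/-, -8.34 (2.27) in Rarb-/- and -7.28 (2.13) in Rarg-/- cells with ATRA at day 10. With BMS753 Nodal was at -4.87 (1.81) in WT and -6.07 (1.88) in Rarg-/- cells. In Rarb-/- cells it was at -3.53 (1.27) with BMS961 and -3.75 (1.29) with the combination, and it was not listed with either in WT or Rara-/- cells or with the combination in Rarg-/- cells, whose tables list other genes from 2.75 to 3.35 upwards in size. At its SE in the 2 Rarb-/- tables Nodal needed 3.27 and 3.32, so its values there were just past the limit and a slightly smaller fall elsewhere could be unlisted. Gdf3, a Nodal-like ligand of pluripotent cells, was down in 14 tables. It was at -5.04, -8.03 and -9.28 with ATRA in WT cells at days 2, 4 and 10 and at -10.70, -9.05 and -10.04 with ATRA in Rara-/-, Rarb-/- and Rarg-/- cells. With BMS753 at day 10 Gdf3 was at -5.96 (SE 1.91) in WT and -9.44 (2.19) in Rarg-/- cells. Smaller changes were listed with the combination in WT (-4.50) and Rarg-/- cells (-4.71), with BMS641 in Rarg-/- cells (-4.83) and with BMS961 in WT (-4.34) and Rara-/- cells (-3.64). At day 4 with the combination Gdf3 was listed at -1.58 (SE 0.60) and not called, and with BMS753 at day 2 it was just past the threshold at -2.28 (0.82).

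The Lefty genes encode inhibitors of Nodal, lie 35.9 kb apart on chromosome 1 and are near-identical copies, so reads may be split between them and their values are uncertain. Lefty1 was at -9.24 (SE 2.30), -8.15 (2.04), -6.70 (2.01) and -9.56 (2.30) with ATRA at day 10 in WT, Rara-/-, Rarb-/- and Rarg-/- cells, and at -8.28 and -5.89 with BMS753 in WT and Rarg-/- cells. Lefty2 was at -7.64, -6.70, -7.64 and -6.61 in the same ATRA tables. In Rarb-/- cells both were down with BMS961 (-4.71 and -5.32) and with the combination (-4.99 and -6.87), as Nodal was. In EtOH at day 10 Lefty1 was at -3.05 (1.14) and Lefty2 at -7.64 (2.52), while Nodal was not listed. Rarb-/- cells with BMS753 listed none of Nodal, Gdf3, Lefty1 and Lefty2, in a table that lists no gene under 4.42 in size.

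The value -7.64 of Lefty2 recurs to 4 decimals in 5 tables, and the tables hold no counts that would tell whether these libraries had any Lefty2 read. The co-receptor Tdgf1 and the transcription factor Foxh1, both needed for Nodal signals, fell too: Tdgf1 was at -10.62 and Foxh1 at -6.31 with ATRA in WT cells at day 10. Of 12 pluripotency markers (Tdgf1 among them), 6 were down with ATRA and 6 with BMS753 in WT cells at day 10, 2 in EtOH, and 5 or 6 with ATRA in the mutant lines, beside 8.61%, 9.13%, 7.64% and 9.47% to 10.4% of all genes. Klf4, another of the 12, went the other way. It was up in 8 tables (3.56 to 5.57), among them EtOH at day 10 and ATRA in each mutant line. Fewer pluripotent cells and less of each RNA per cell cannot be told apart in bulk RNA, and the part of cell composition was not tested. In Rarg-/- cells 0 of the 12 markers were down with BMS641 or the combination (beside 7.82% and 7.3% of all genes), and Gdf3 was down with both. The markers down in EtOH, Nanog (-3.24, SE 1.24) and Tdgf1 (-3.37, SE 1.19), were not far past 2.58 times their SE. Marker falls of that size could thus go unlisted in Rarg-/- cells, and the difference from Gdf3 was not tested. In Rarb-/- cells 2 of the markers were down with BMS753, 3 with BMS961 and 2 with the combination (beside 6.79%, 6.96% and 7.64%). Nodal, Gdf3, Lefty1 and Lefty2 were not listed with BMS753 in Rarb-/- cells. At their SE with BMS753 in Rarg-/- cells they needed 4.69 to 5.64, so a fall could go unlisted.

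The activin subunit genes moved the other way. Inhbb, which encodes the activin and inhibin βB subunit, was up in 12 tables, at 9.53 (SE 2.68) with ATRA, 8.94 (2.60) with BMS753 and 8.91 (2.39) in EtOH in WT cells at day 10, so that vehicle lay within 1 SE of both ligands. Inhba, the βA subunit gene, was at 8.02 (2.89) with ATRA at day 2 and, at day 10, at 8.48 with ATRA, 8.09 with BMS753 and 6.94 in EtOH. With ATRA in Rara-/-, Rarb-/- and Rarg-/- cells Inhba was at 9.61, 8.74 and 9.98. Noggin (Nog), the secreted BMP inhibitor that favours neural fate, was up in 8 tables from 3.61 to 5.23, with 4.25 in EtOH, 3.76 with BMS961 and 5.23 with BMS753 at day 4 in WT cells. It was in no ATRA table, and the day 10 ones list no gene under 4.17 to 4.73. Bmper (Rarg-/- with ATRA, 5.92) and the activin inhibitor follistatin (Fst, Rarg-/- with the combination, -3.72) were in 1 table each.

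**Figure D4:**
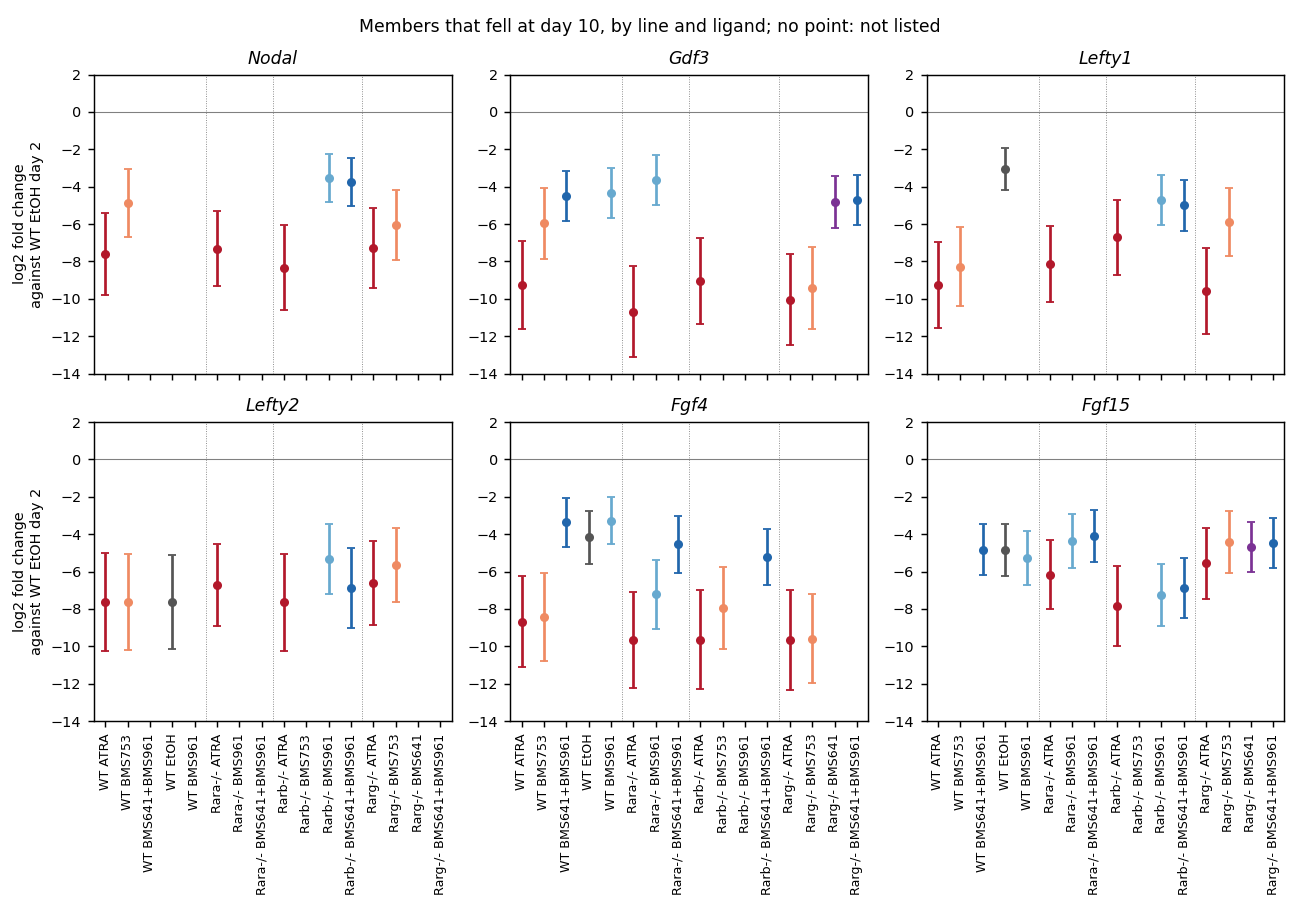
Log2 fold change against WT EtOH day 2 of Nodal, Gdf3, Lefty1, Lefty2, Fgf4 and Fgf15 in the 16 day 10 comparisons (points, with bars of 1 implied SE; 1 library per point; colours as ligand names on the axis, red ATRA, orange BMS753, dark blue the combination, light blue BMS961, purple BMS641, grey EtOH), with no point where the gene is not listed. ATRA points lie lowest for Nodal, at -7.28 to -8.34, and Rarb-/- cells hold the only listed values of Nodal without ATRA or BMS753.

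FGF ligands split into those that fell and those that rose. Fgf4, an autocrine factor of pluripotent cells, was down in 16 tables. In WT cells it was at -4.76 (SE 1.78), -7.17 (2.31) and -8.68 (2.43) with ATRA at days 2, 4 and 10, at -9.65 (2.84) and -8.41 (2.35) with BMS753 at days 4 and 10, and at -3.37 (1.29), -3.28 (1.27) and -4.17 (1.42) with the combination, BMS961 and EtOH at day 10. With ATRA the mutant lines had -9.65 each, the value that recurs to 4 decimals in 4 tables. In Rara-/- cells Fgf4 was at -7.21 with BMS961 and -4.55 with the combination, in Rarb-/- cells at -7.95 with BMS753 and -5.21 with the combination, and in Rarg-/- cells at -9.60 with BMS753. It was not listed with BMS961 in Rarb-/- cells or with BMS641 or the combination in Rarg-/- cells. At its SE in WT cells Fgf4 needed 3.32 with the combination and 3.27 with BMS961, so its values there were just past the limit. A fall of similar size could go unlisted in these mutant tables. In the same 2 Rarg-/- tables Gdf3 was down, and the 2 genes were not compared by a test.

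Fgf15, which lies 31.3 kb from Fgf4 on chromosome 7 and is a ligand of the early neural tube, was down in 14 tables. It was at -4.82, -5.26 and -4.83 with the combination, BMS961 and EtOH in WT cells at day 10 (SE 1.38 to 1.45), and was lowest in Rarb-/- cells with ATRA (-7.86), BMS961 (-7.28) and the combination (-6.89). WT cells listed Fgf15 with ATRA at day 2 (-5.14) but not at days 4 or 10, nor with BMS753 on any day. At its SE with ATRA in the mutant lines Fgf15 needed 4.79 to 5.54 to be listed. A fall of the size seen in vehicle could therefore go unlisted in WT cells with ATRA. Fgf5, a ligand of the primed epiblast, was down in 6 tables (-3.96 to -5.77), among them the combination in WT (-3.96), Rara-/- (-4.70) and Rarg-/- cells (-4.07).

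Fgf18 and Fgf9 were the rising FGF ligands listed in the most tables. Fgf18 was up in 10 tables, at 8.23 (SE 2.83) and 7.29 (2.60) with ATRA at days 4 and 10, 7.72 with BMS753 and 7.13 in EtOH in WT cells, and at 8.20, 9.99 and 9.74 with ATRA in Rara-/-, Rarb-/- and Rarg-/- cells. Fgf9 was up in 6 tables of ATRA or BMS753 at day 10 and in no other (7.16 to 7.97). Fgf10 was up in Rarg-/- cells with ATRA (6.40) and BMS753 (6.39), Fgf16 with ATRA in Rara-/- (6.97) and Rarg-/- (6.71) cells, and Fgf21, an endocrine FGF, with ATRA in Rara-/- (5.08) and Rarb-/- (4.94) cells. Fgf8, the ligand of the midbrain-hindbrain boundary, was in 1 table, WT with BMS753 at day 2 (4.15, SE 1.16).

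The listed FGF receptor and modulators fell. Fgfr4 was down in 13 tables, from -3.49 (WT with BMS961) to -5.78 (Rarb-/- with BMS961), with -5.12 (SE 1.58) in EtOH at day 10 and -5.24 (1.93) with ATRA at day 2. Fgfbp1, a secreted carrier of FGFs, was down in 8 tables of ATRA or BMS753 and no other. It was at -10.92 (2.88) with ATRA at day 4, the lowest value of any member, and at -6.99, -8.31, -7.07 and -7.13 with ATRA at day 10 in WT, Rara-/-, Rarb-/- and Rarg-/- cells. Day 10 values of Fgfbp1 with BMS753 were -4.77 in WT, -5.07 in Rarb-/- and -5.09 in Rarg-/- cells. Spry4, a feedback inhibitor of receptor tyrosine kinases, was down with ATRA at day 2 (-6.53) and in Rarb-/- cells with BMS961 (-3.36) and the combination (-4.02). Of 9 other FGF response genes 1 was listed, the immediate early gene Egr1, which was up in 15 tables (3.90 to 6.98).

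Genes of the IGF, PDGF, VEGF, EGF and Kit families rose with few exceptions. Igf2, a fetal growth factor, was up in 9 tables, at 4.59 (SE 1.68) and 4.95 (1.85) with ATRA at days 4 and 10 and 5.05 with BMS753 in WT cells. It stood at 6.06 in each of the 3 mutant lines with ATRA, to 4 decimals, with SE of 1.82 to 1.94, and at 3.35 with the combination in Rara-/- cells. Igfbp4, an IGF-binding protein, was up in 8 tables of ATRA or BMS753 and no other (4.42 to 6.43). Igf2r, the receptor that clears Igf2, was up in Rarg-/- cells with ATRA (7.40) and BMS753 (6.27) and in WT cells with BMS753 at day 4 (6.00), where reads of the antisense gene Airn could not be told apart without strand. Igfbpl1 was up with BMS753 in Rarb-/- (7.78) and Rarg-/- (4.43) cells.

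Pdgfrb, a receptor of mesenchymal cells and pericytes, was up at day 10 with ATRA and BMS753 in WT cells (5.35 and 5.42), with ATRA in Rara-/- cells (4.78) and with both in Rarb-/- cells (6.13 and 5.52). Pdgfc, a gene of a PDGF ligand, was up with ATRA in Rara-/- (4.91), Rarb-/- (5.22) and Rarg-/- (5.68) cells and with BMS753 in Rarg-/- cells (5.26). At its SE with ATRA in these lines Pdgfc needed 4.43 to 4.92 to be listed. Of 10 mesenchymal markers, 7 were up in WT cells with ATRA, 7 with BMS753, 8 with ATRA in each mutant line and 2 in EtOH at day 10, beside 22.5%, 21.8%, 19% to 21.4% and 9.53% of all genes. Their part in the values of Pdgfrb, Pdgfc, Wnt5a, Fgf10 and Igf2 was not tested. Kitl, the Kit ligand, was up in 7 tables of ATRA or BMS753 and no other (5.44 to 6.03). Egfr, the EGF receptor, was listed mostly without ATRA or BMS753. In WT cells at day 10 it was at 4.48 (SE 1.59) in EtOH, 4.62 with the combination and 4.21 with BMS961. In Rara-/- cells it was at 5.35 and 5.10 with BMS961 and the combination. With ATRA it was up in Rarg-/- cells alone (5.45), and with BMS753 in WT cells at day 2 alone (4.15, SE 1.35). At its SE in vehicle at day 10 it needed 4.10 to be listed, and the WT ATRA table lists no gene under 4.73. Vegfd (Rarb-/- with ATRA, 5.03), Vegfb (Rara-/- with BMS961, -3.33) and Egf (Rarb-/- with BMS961, 3.69) were in 1 table each.

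Notch ligands and Shh were listed mainly in WT cells with ATRA or BMS753. Dll1, a ligand on neural progenitors, was up with ATRA at days 2, 4 and 10 (4.41, 5.44 and 4.98, SE 1.70 to 1.89), with BMS753 at day 4 (4.62) and in Rarb-/- cells (6.02), and in Rara-/- cells with BMS961 (3.88) and the combination (4.35). Dll4 was up with ATRA at days 4 and 10 (7.97 and 6.75), with BMS753 at days 4 and 10 (8.68 and 6.90) and with BMS753 in Rarb-/- cells (7.32). Shh, the ventralizing ligand of the neural tube, was up with ATRA at day 10 (6.85), with BMS753 at days 4 and 10 (8.75 and 7.70) and with BMS753 in Rarb-/- (7.58) and Rarg-/- (7.41) cells. Neither Dll1, Dll4 nor Shh was listed with ATRA in any mutant line.

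Among targets of these routes, Hes5, a Notch target of neural progenitors, was up in 12 tables (7.42 to 11.95), including ATRA in Rara-/- (7.66) and Rarg-/- (7.50) cells, and was highest with BMS753 in Rarb-/- cells. In total 5 of 13 Notch response genes were listed, 4 up and 1 (Hes7) down, and those other than Hes5 were in 1 table each. Of 8 Hedgehog genes 4 were up. Gli1 was up at day 2 with ATRA (4.39) and BMS753 (3.46), when Shh was not listed. At its SE in WT cells Shh needed 6.65 to 7.26 to be listed, so a rise at day 2 could be unlisted. Gas1, a co-receptor, was up in 11 tables (3.63 to 6.61), and Boc and Cdon in 2 each.

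Receptors of neurotrophic factors were few. Ret, the GDNF receptor kinase, was down in EtOH at day 10 (-5.39) and in Rarg-/- cells with BMS641 (-4.45) and the combination (-5.32). Gfra1 was up at day 2 with ATRA (4.06) and the combination (3.58), Gfra2 was down with ATRA at day 2 (-7.65, SE 2.92), and Ntrk2, the BDNF receptor, was down in EtOH at day 10 (-3.75). Among their partners, Ngfr was up in 11 tables (7.36 to 10.61). Of 12 neuron markers, 6 were up with ATRA and 5 with BMS753 in WT cells at day 10, 2 with the combination and 0 in EtOH (beside 22.5%, 21.8%, 9.87% and 9.53% of all genes), and of 8 glia markers 1 was in any table.

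By day, falling members were first listed with ATRA at different times. Gdf3 and Fgf4 were already called at day 2, and Nodal, Lefty1, Lefty2 and Fgfbp1 from day 4. At their SE at day 4, Nodal needed 4.95, Lefty1 5.54, Lefty2 7.39 and Fgfbp1 7.42 to be listed. A fall at day 2 could thus be unlisted, and the order of listing does not give the order of falling. The day 2 list with ATRA also held Wnt6, Wnt10b, Bmp2, Inhba, Dll1 and Gfra1 as up and Fgf15, Fgfr4, Spry4 and Gfra2 as down. With BMS753 the day 2 list had 7 members, with Wnt8a (7.65), Wnt10b (6.69), Wnt1 (4.89), Fgf8 (4.15), Egfr (4.15) and Wnt4 (3.37) up and Gdf3 down. Its day 4 list was larger, with Wnt1, Dkk1, Shh, Wnt10b, Dll4 and Wnt3a between 9.57 and 8.07. With the combination, Gfra1 and Egfem1 (4.06) made up the day 2 list, and Wnt1 and Egfr (3.65) were the members up at day 4. The early lists of the combination hold 91 and 105 genes in all, against 144 and 279 with ATRA.

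**Figure D5:**
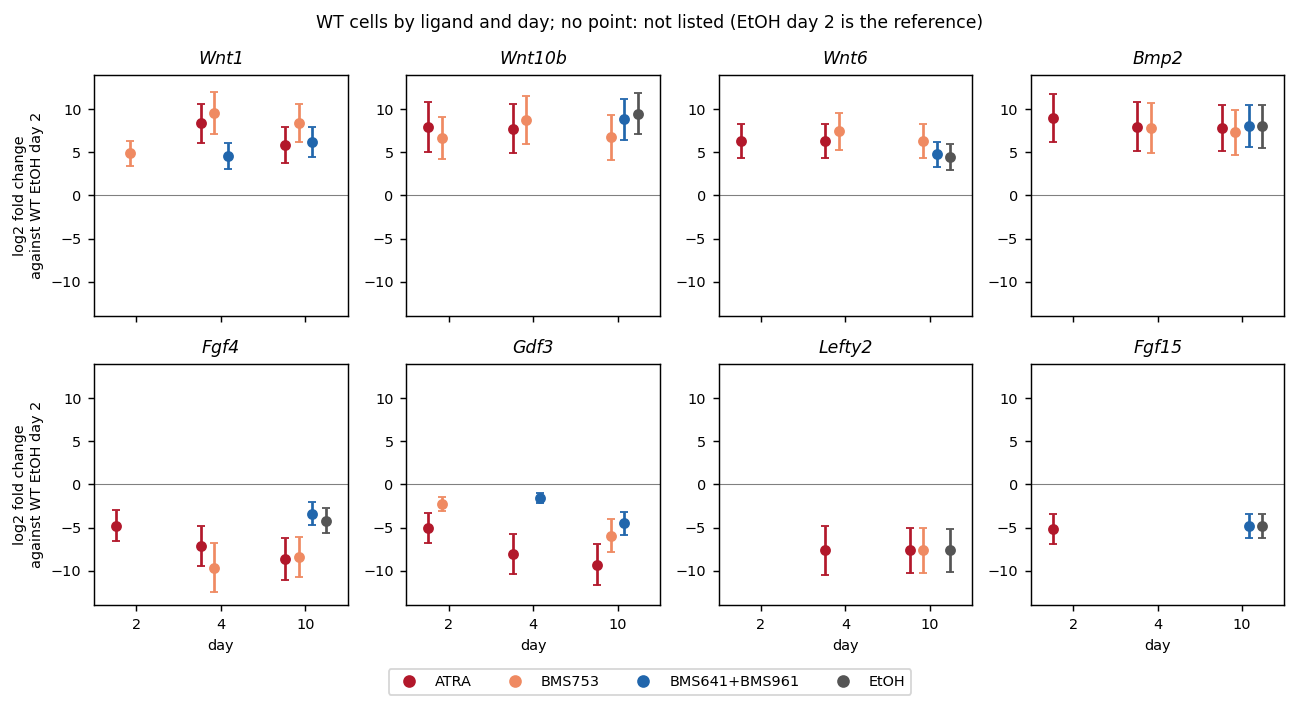
Log2 fold change against WT EtOH day 2 of 8 members in WT cells at days 2, 4 and 10 with ATRA (red), BMS753 (orange), the combination (blue) or EtOH (grey), with bars of 1 implied SE and 1 library per point, and no point where the gene is not listed. Wnt1 has no grey point, while Wnt10b, Bmp2 and Lefty2 have grey points at day 10 at 9.44, 7.99 and -7.64.

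The combination was compared between WT and Rara-/- cells, since the study asked how its response changes when RARα is absent. Members called in Rara-/- and not in WT cells were Wnt3 (5.15), Wnt3a (5.50), Wnt4 (3.82), Wnt9a (4.17), Dll1 (4.35), Fgf18 (7.24), Igf2 (3.35), Inhba (7.16), Inhbb (8.84) and Nog (3.88) as up and Fgfr4 (-4.15) as down. These are 11 of 66 members (16.7%), beside 241 of 1753 genes (13.7%) called in Rara-/- and not in WT cells with the combination. At their SE in the Rara-/- table, Fgf18, Inhba and Inhbb needed 6.41, 6.44 and 6.21 to be listed, so their absence from the WT table does not place them low. Wnt9a, Fgf18, Inhba, Inhbb, Nog and Fgfr4 were also called in WT EtOH at day 10, at 3.59, 7.13, 6.94, 8.91, 4.25 and -5.12, so that their Rara-/- values stand beside vehicle values of similar size. Wnt3, Wnt3a, Wnt4, Dll1 and Igf2 were not listed in EtOH. At their SE in the Rara-/- table they needed 4.25, 4.77, 3.63, 3.89 and 3.32 to be listed. Smaller rises could therefore go unlisted in WT cells with the combination or in EtOH, and Igf2 was barely past its limit. With BMS961 alone in Rara-/- cells, Wnt4 (3.81) and Dll1 (3.88) were also up, whereas Wnt3, Wnt3a and Igf2 were not listed. Gdf3, down at -4.50 (SE 1.34) in WT cells with the combination, was not in the Rara-/- table, and nor were Wnt7b (8.84 in WT) and Gdf6 (-7.95 in WT). Fgf4 was down in both (-3.37 and -4.55). Of the mesenchymal markers, 7 of 10 were up in the Rara-/- table of the combination and 2 of 10 in the WT one, and of the neuron markers 4 and 2 of 12, beside 16.8% and 9.87% of all genes up in these tables.

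With ATRA at day 10, the members of largest size called in WT cells and in the 3 mutant lines were Gdf3, Lefty1, Fgf4, Inhba and Bmp2, described above. Those called in WT cells and in no mutant line were Shh, Dll4, Wnt1, Bmp6 and Dll1, whose WT values were 6.85, 6.75, 5.86, 5.21 and 4.98 with SE of 1.89 to 2.60. At these SE, Shh and Dll4 needed 6.70 to be listed, Wnt1 5.31, Bmp6 5.10 and Dll1 4.87, so a rise close to that of WT cells could go unlisted in the mutant lines. Among the 47 members listed in 2 or more day 10 tables, the listed values of 27 spanned less than their median SE (Bmp2, Wnt3a and Shh among them), and differences in size between conditions cannot be read for these. The other 20 spanned more, which a range over several values can also do without a difference.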

How the data were processed

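RNA of 24 P19 samples, 1 library per condition, had been sequenced after poly-T selection (NEBNext Ultra II). The authors aligned reads to mm9 with Bowtie2 (version 2.1.0), counted reads per gene with featureCounts and used DESeq2 for the comparisons, per the labels and methods. The strand setting of the counting is not given in the sources used here. The 23 deposited tables hold a log2 fold change and an unadjusted p-value per gene from the authors' comparison of 1 library with WT EtOH day 2, for genes with p under 0.01 only. In 1 table the authors also deposited a standard error, a score in log2 units. These are the authors' own comparison values, since they are the only measurements in the files used here. Read counts were not used, which leaves the sequencing depth unknown, without an interval or a detection floor.

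Members were selected by symbol, and called past a log2 fold change of 2 in size. The SE of a value was its size divided by the two-sided normal quantile of its p-value, whose largest relative difference from the deposited SE was 4.27e-08 (144 genes). Calls were checked on simulated data, which is a check of the code only. The accuracy of the calls in these data was not tested. Named were members called in 8 or more tables, the 5 largest changes of each WT day 10 table and the 3 largest of each earlier WT table, members called in Rara-/- and not in WT cells with the combination, and the 5 largest called with ATRA at day 10 in WT and in all or none of the mutant lines; the remaining members are given by family. The members, families and marker lists were chosen with earlier results of these data known. The alternatives were thresholds of 1 and 3, p under 0.001, a t quantile, the signalling families alone, and leaving out members called in EtOH at day 10. Leaving out a replicate was not possible with 1 library each. Gene positions are those of the mm9 annotation. The work used matplotlib 3.10.9, scipy 1.17.1, numpy 2.4.6, pandas 2.3.3 and Python 3.11.15.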

Additional observations from a re-analysis of the deposited data

How the results depend on the processing

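No paired analysis was possible because no condition has a second library and the lists used here, held to p under 0.01, give no counts for a fit with the line as a block. The counts of members called in each table and over tables, 62 in all, could move little with the fold threshold by construction, since the day 10 tables list no change under 2.71 to 4.73: 60 stayed within 1.5 times with a log2 threshold of 1 and 61 with a threshold of 3, which says nothing of stability. With a threshold of 1, 1 member was down in WT cells with the combination at day 4 and 1 in EtOH at day 4, in place of 0, and with a threshold of 3, 0 were down with BMS753 at day 2, in place of 1. Without Egfem1, Tgfbi and Tgfbr3l, 1 member was up with the combination at day 2, in place of 2. The t quantile gave a median SE of 1.74, against 1.95.

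The p-value limit mattered most, moving 53 of the 62 counts, by the construction of a shorter list. With p under 0.001, WT cells had 1, 1 and 1 members up and 0, 3 and 5 down with ATRA at days 2, 4 and 10, 3, 4 and 3 up and 0, 1 and 2 down with BMS753, and 0, 0 and 3 up and 0, 0 and 2 down with the combination. EtOH at day 10 had 3 up and 1 down and BMS961 2 and 1. Rara-/- cells had 2 up and 6 down with ATRA, 4 and 1 with BMS961 and 5 and 0 with the combination. Rarb-/- cells had 4 and 6 with ATRA, 4 and 1 with BMS753, 0 and 3 with BMS961 and 2 and 3 with the combination. Rarg-/- cells had 2 and 5 with ATRA, 5 and 2 with BMS753, 3 and 2 with BMS641 and 3 and 2 with the combination. Over the 3 WT days the counts up and down were 3 and 5 (from 21 and 10) with ATRA, 8 and 2 (from 29 and 6) with BMS753 and 3 and 2 (from 9 and 5) with the combination. Over the mutant lines they were 5 and 6 (from 28 and 8) with ATRA, 7 and 2 (from 29 and 9) with BMS753, 6 and 4 (from 20 and 11) with the combination and 4 and 4 (from 16 and 10) with BMS961. Members called with a ligand in WT cells at day 10 and also in EtOH were 4 in place of 14 (21.2% of 66, beside 11.9% of all genes), and those called in Rara-/- and not in WT cells with the combination 3 in place of 11.

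Leaving out members called in the same direction in WT EtOH at day 10 moved 38 of 59 counts. In WT cells 2 were then up with ATRA at day 2 and 3, 3 and 3 down at days 2, 4 and 10. With BMS753 0 and 3 were down at days 4 and 10, with the combination 1 was up at day 4 and 2 up and 3 down at day 10, and with BMS961 2 up and 1 down. In Rara-/- cells 3 were down with ATRA, 5 up and 3 down with BMS961 and 7 up and 1 down with the combination. In Rarb-/- cells 3 were down with ATRA, 3 up and 2 down with BMS961 and 4 up and 2 down with the combination. In Rarg-/- cells 3 were down with ATRA, 3 down with BMS753, 0 up and 2 down with BMS641 and 0 up and 3 down with the combination. Over the WT days 5 were down with ATRA, 3 with BMS753 and 4 up and 3 down with the combination. Over the mutant lines 3 were down with ATRA, 4 with BMS753, 10 up and 5 down with the combination and 8 up and 5 down with BMS961. Of the 11 members called in Rara-/- and not in WT cells with the combination, 5 were left.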

Other observations

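Tgfbr3l, a member not placed in a family here, was up in 8 tables between 6.84 and 8.32. It was listed in all 4 Rarb-/- tables (7.66 with ATRA, 7.13 with BMS753, 6.84 with BMS961 and 7.15 with the combination). In WT cells it was listed only with ATRA at day 4 (8.32) and BMS753 at day 10 (7.70). In Rarg-/- cells it was listed with ATRA (7.36) and BMS753 (7.02), and in Rara-/- cells it was not listed. At its SE in the Rarb-/- tables Tgfbr3l needed 6.36 to 6.67 to be listed, and its value with BMS961 was just past the limit. Its absence from other tables therefore does not place it low, and a difference between lines was not tested. Tgfbi, a matrix protein, was up with ATRA in Rarb-/- cells (4.98).

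Equal log2 fold changes to 4 decimals in more than 1 table were found for 73 of the 1753 genes. For 69 of these the repeated value was below 0, in 66 of them at the lowest value of the gene, as for Fgf4 (-9.65 in 4 tables) and Lefty2 (-7.64 in 5). For 4 it was above 0, among them Igf2 (6.06 with ATRA in the 3 mutant lines). The cause was not tested. Of the 1753 genes, 12 were up in 1 table and down in another, and none of the 66 members was.

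Of 15 retinoid response genes, 12 were listed in at least 1 table, 6 of the 15 up with ATRA and 3 with BMS753 in WT cells at day 2 and 0 with the combination. In EtOH at day 10, 0 of them were called. Of 8 endoderm markers 4 were in a table, and of 6 endothelial markers 2.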
